A study of Macaca mulatta with 28 samples.

Results

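Transcripts of 10 antioxidant defense genes were examined in the ventral tegmental area (VTA) of 28 adult male rhesus macaques, and were chosen by gene symbol: SOD1, SOD2, GPX4, PRDX1, PRDX2, TXN, NQO1, HMOX1, NFE2L2 and GCLM. Of the 16885 gene symbols in the count table, 9 were members of this set, and TXN was not analysed here. The VTA is the midbrain region that houses the cell bodies of mesolimbic dopamine neurons. The study asked whether gene expression there differs after long-term voluntary alcohol drinking, and sequenced 1 library of messenger RNA per animal from a tissue punch. Each group below holds wild-type animals in which tissue was taken after 30 days of abstinence.

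The 17 drinkers had learned to drink 4% ethanol from an operant panel in their home cage, then chose freely between ethanol and water in daily sessions of 22 h for 12 months, followed by repeated abstinence periods with renewed access in between. By drinking phenotype, 1 animal was a low, 2 were binge, 5 were heavy and 9 were very heavy drinkers. The 11 controls received no ethanol and were calorically yoked or housing controls, which the labels do not tell apart. The animals came from 2 cohorts. Cohort 1 held 8 controls, 1 low, 4 heavy and 3 very heavy drinkers, and cohort 2 held 3 controls, 2 binge, 1 heavy and 6 very heavy drinkers. Drinking was voluntary, so that the categories were not assigned, and an effect of drinking was read only after abstinence.

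Cells make superoxide and peroxides as by-products of respiration and of the oxidation of ethanol and dopamine, and remove them in steps. Superoxide dismutases turn superoxide into hydrogen peroxide, which peroxiredoxins and glutathione peroxidases then reduce with electrons from thioredoxin and glutathione. A second layer can be induced: the transcription factor NRF2, encoded by NFE2L2, binds antioxidant response elements and raises genes for glutathione synthesis, heme breakdown and quinone reduction, among them GCLM, HMOX1 and NQO1. PRDX1 is a further gene that NRF2 is known to raise.

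The response element is shown here since it is the sequence that links NFE2L2 to its targets. Its core, TGACNNNGC, was searched on both strands in the 1000 bases before the RefSeq start of each gene (assembly Mmul_10). A match stood before 4 of the 9 genes (44.4%), against 32.3% of 20767 protein-coding genes. The lines below give the matches whose middle 19 bases were found before no other gene, with the match in capitals within 10 bases on either side, written 5′ to 3′ on the strand of the gene.
NQO1, chr20:56988364-56988392, 440 bases before the start: acagtcacagTGACTCAGCagaatctgag
PRDX1, chr1:178900320-178900348, 137 bases before the start: gaggaaaagcGCCGAGTCAttccggtggg
The match of NQO1 lies on the strand of the gene and also holds the AP-1 motif (TGANTCA with C or G at the fourth base), and that of PRDX1 lies on the opposite strand. These matches describe the letters in the window and not the binding of NRF2.

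The superoxide dismutases are SOD1 (chr3:14839590-14848358 in Mmul_10, minus strand), the copper and zinc enzyme of the cytosol, and SOD2 (chr4:10902818-10916241, plus strand), the manganese enzyme of mitochondria. The peroxide-removing enzymes are GPX4 (chr19:879102-881951, plus strand), which reduces lipid peroxides with glutathione, PRDX1 (chr1:178900467-178920562, plus strand) and PRDX2 (chr19:12374890-12380145, minus strand), both peroxiredoxins of the cytosol. GCLM (chr1:130243686-130263537, plus strand) is the modifier subunit of the ligase that limits glutathione synthesis, HMOX1 (chr10:16154014-16168020, minus strand) the inducible heme oxygenase, and NQO1 (chr20:56970085-56987942, minus strand) a quinone reductase. NFE2L2 lies at chr12:64326140-64382891, minus strand, and has 4 messenger RNAs in RefSeq. The table gives 1 Ensembl transcript for each symbol, and what Salmon gave to further transcripts is not counted. Retrocopies of genes such as PRDX1 and SOD1 are known in primate genomes, and how reads were split between near-identical copies was not tested.

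The 28 libraries held between 12303914 and 27338669 estimated counts, with a median of 22020291, and 13 mitochondrial genes for proteins took 36.4% to 60.6% of them. All 9 antioxidant genes passed the filter of at least 5 counts in at least 3 animals, as did 13769 transcripts in all. The label of the tissue was checked against markers of dopamine neurons, and all 8 of them passed the filter, but their summed level ran from 19.8 to 1674 CPM, a count scaled to the size of its library, between animals, so the share of such cells or their RNA differed widely between punches. Oligodendrocyte markers were more abundant, with a sum of 11733 to 21389 CPM. In bulk tissue, fewer cells of a type and less RNA per cell cannot be told apart. Several defining markers were listed at 0 in at least 14 animals: RBFOX3 and SYT1 of neurons, CLDN11 of oligodendrocytes, AQP4, SLC1A2 and ALDH1L1 of astrocytes and PTPRC of microglia.

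The antioxidant genes fell into 2 ranges of level. Per kilobase of RefSeq transcript, the median over the 28 animals was 386 CPM for SOD1, 345 CPM for SOD2, 302 CPM for GPX4, 286 CPM for PRDX2 and 245 CPM for PRDX1. The other genes were far lower, with medians of 12.9 CPM per kilobase for GCLM, 10.02 for NFE2L2, 6.87 for HMOX1 and 0.743 for NQO1. The lowest animal of PRDX1 (147 CPM per kilobase) was above the highest of GCLM (17.1) and of NFE2L2 (19.5), the top of the lower range, so the 2 ranges did not overlap. Within each range, neighbouring genes overlapped. SOD1 was above SOD2 in 23 of 28 animals, SOD2 above GPX4 in 20, GPX4 above PRDX2 in 14 and PRDX2 above PRDX1 in 19. Further down, GCLM was above NFE2L2 in 20 animals, NFE2L2 above HMOX1 in 19 and HMOX1 above NQO1 in 28. These lengths are those of RefSeq models, which may differ from the Ensembl transcripts that were quantified. The order at the top depends on the length used: the RefSeq model of SOD1 (465 bases) holds the coding part alone, and with its longer messenger RNA SOD2 had a median of 77.4 CPM per kilobase.

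Spread between animals also set the genes apart. Below, values are normalized counts, that is CPM multiplied by the median library size after scaling. SOD1 varied least, from 3269 to 4969 over all animals, a coefficient of variation of 10.9%, and only 2.91% of transcripts tested varied less. GPX4 was nearly as even, at 11.9%, and GCLM stood at 15.7%. SOD2 varied by 18.2%, PRDX2 by 20.8% and PRDX1 by 29.0%, against medians of 14.5% to 14.9% for transcripts of like level. HMOX1 varied by 37.6% and was 7.30 times as high in its highest as in its lowest animal. NFE2L2 and NQO1 varied most, by 58.0% and 87.3%, and both were listed at 0 in some animals.

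**Figure D1:**
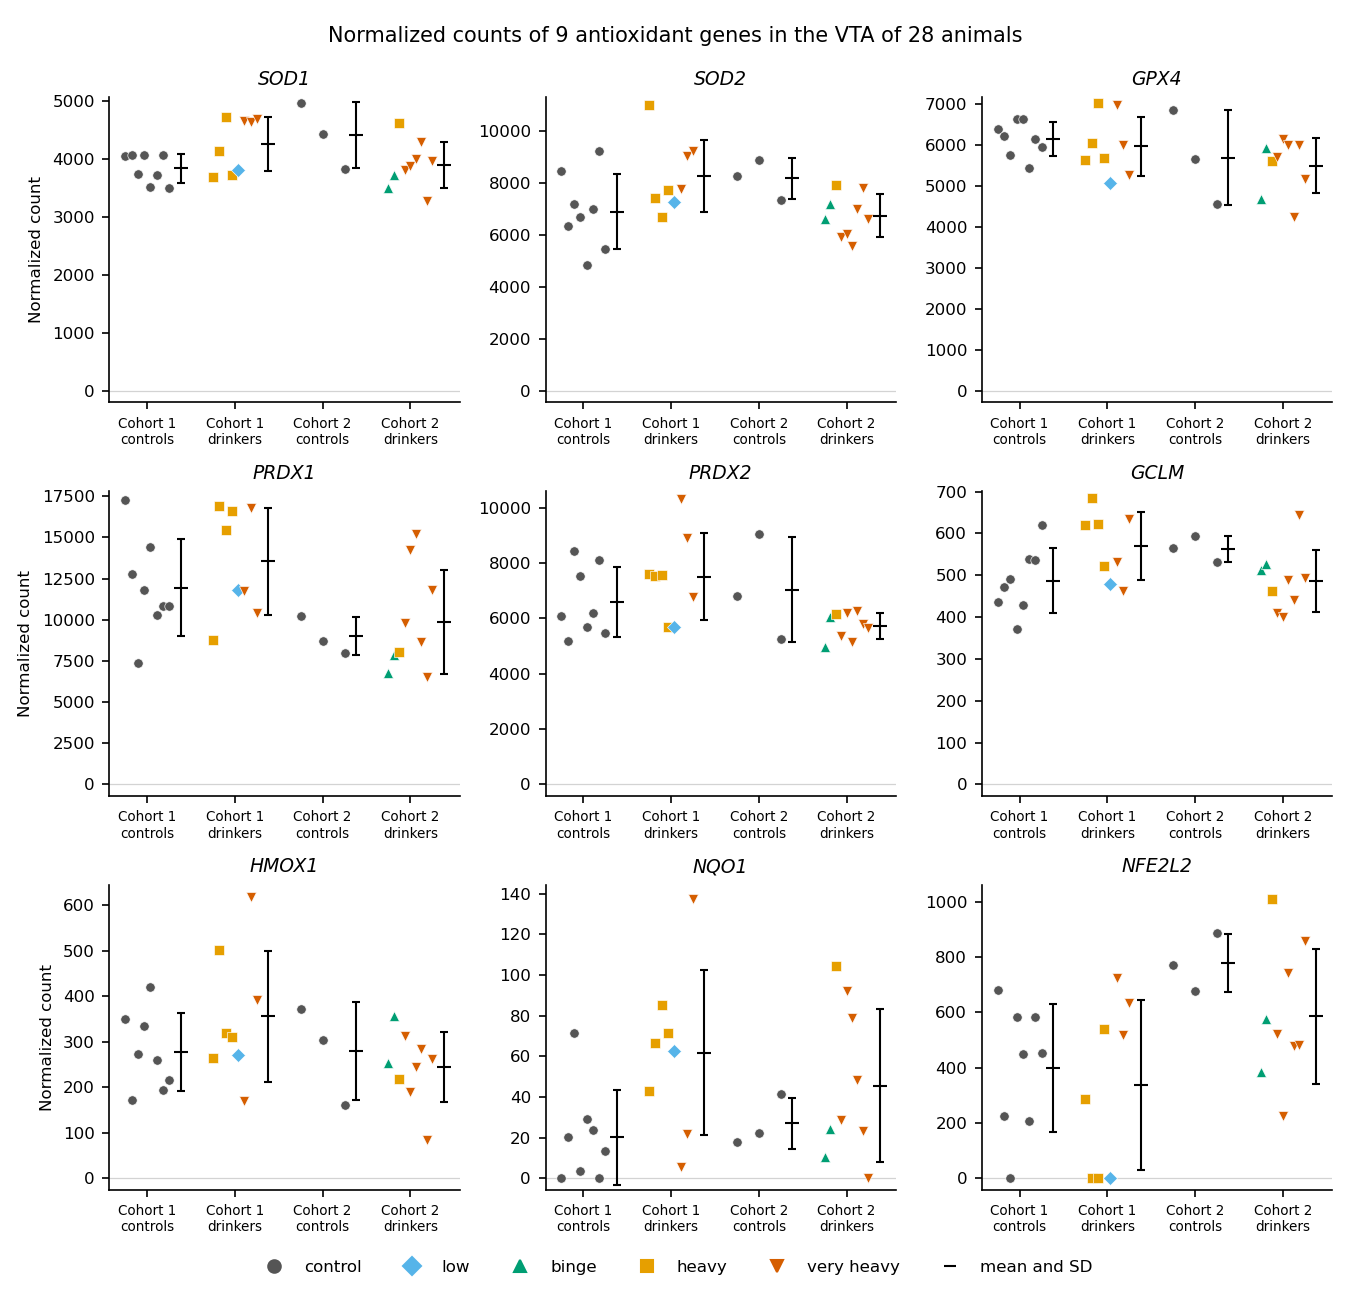
Normalized counts (y axis, from 0) of each antioxidant gene in every animal, by cohort and treatment (x axis). Symbols give the drinking category, and the black bars the mean and SD of each of the 4 groups (8, 8, 3 and 9 animals). All groups overlap for every gene, and NFE2L2 is at 0 in 4 animals of cohort 1.

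Over both cohorts, no antioxidant gene differed between drinkers and controls beyond the spread between animals. None of the 9 passed an adjusted p of 0.05 in edgeR's quasi-likelihood test with Benjamini-Hochberg adjustment over 13769 transcripts, where 0% of all transcripts were called, and none passed an unadjusted p of 0.05, where 4.57% of transcripts did. This fit had no cohort term, with 8 controls and 8 drinkers in cohort 1 and 3 controls and 9 drinkers in cohort 2. In it, the log2 fold change of drinkers over controls lay between -0.10 and 0.10 for 8 of the 9 genes. The exception in size was NQO1, at 1.26 (SE 0.66, adjusted p = 1.00 by edgeR's quasi-likelihood test).

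SOD1 had the narrowest interval of the 9 genes. It ran from 3494 to 4969 with a median of 4051 in controls, and from 3269 to 4731 with a median of 3964 in drinkers. Its log2 fold change was 0.02 (SE 0.06), with a 95% interval from -0.10 to 0.15. SOD2 ran from 4826 to 9241 (median 7208) in controls and from 5560 to 11000.5 (median 7271) in drinkers, a log2 fold change of 0.04 (95% interval -0.16 to 0.25). The groups overlapped for both genes, as they did for every other member (0 members without overlap, against 0% of transcripts).

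Among the genes that remove peroxides, GPX4 had medians of 6123 in controls and 5691 in drinkers and a log2 fold change of -0.07 (95% interval -0.21 to 0.07). PRDX1 and PRDX2 had log2 fold changes of 0.06 (-0.27 to 0.38) and -0.03 (-0.26 to 0.19). PRDX1, the most variable of the 3, thus had the widest interval. Within cohorts 1 and 2 the log2 fold change of PRDX1 was 0.19 and 0.14, both above its value over both cohorts. GCLM had medians of 532 and 513 and a log2 fold change of 0.05 (-0.14 to 0.24), and HMOX1 medians of 272 and 271 and a log2 fold change of 0.10 (-0.33 to 0.53).

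NQO1 was a low transcript, with 0 to 127 estimated counts per library. It was listed at 0 in 2 controls and 1 drinker, which allows up to 3 counts in each. Controls ran from 0 to 71.4 with a median of 20.2 normalized counts, and drinkers from 0 to 137 with a median of 48.2. Of the 17 drinkers, 14 lay above the median of the controls and 6 above the highest control, while 3 lay below the control median. The interval of its log2 fold change ran from -0.10 to 2.61 (p = 0.0684 before adjustment by edgeR's quasi-likelihood test). NQO1 thus had the largest fold change of the set but at a depth where a few counts move the value, and the difference did not pass the test.

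NFE2L2 gave no usable fold. It was listed at 0 in 1 control and 3 drinkers, all of cohort 1, and stood between 209 and 1009 normalized counts in the other 24 animals. Its log2 fold change of -0.10 had an interval from -1.41 to 1.22, wider than for any other member apart from NQO1. Since the value belongs to 1 transcript, a 0 does not show that the gene was silent.

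**Figure D2:**
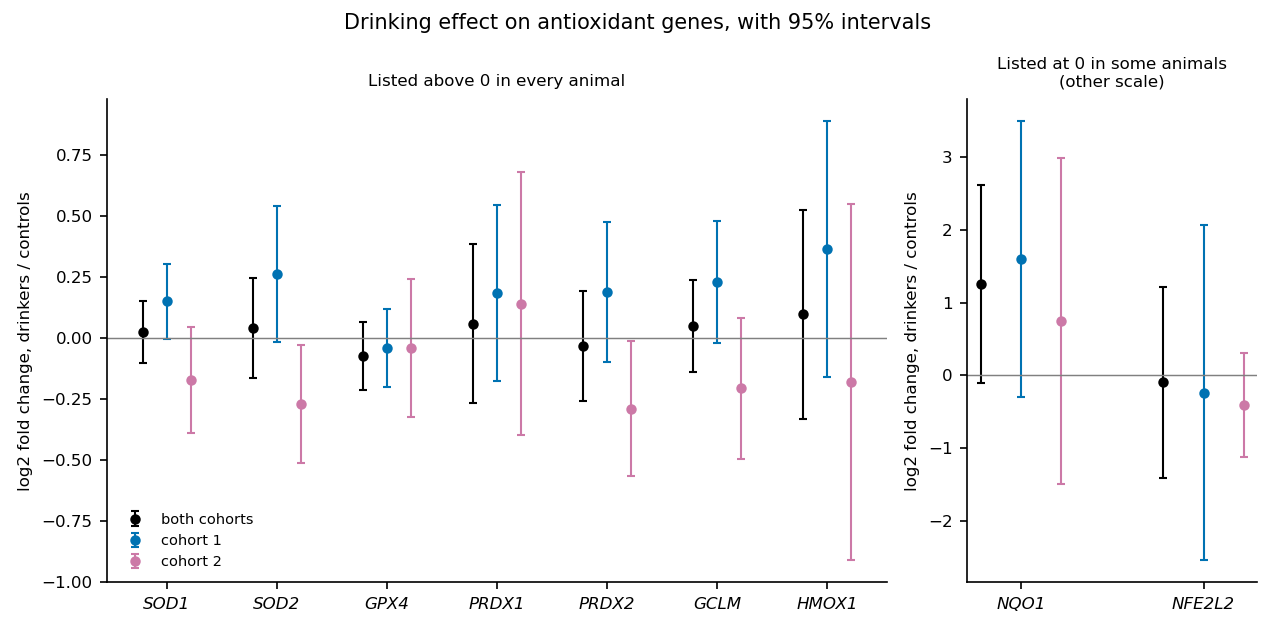
Log2 fold change of drinkers over controls (y axis) for each gene (x axis) in both cohorts together and in each cohort alone, as points with 95% intervals. NQO1 and NFE2L2 have a scale of their own. SOD1, SOD2, PRDX2, GCLM and HMOX1 lie above 0 in cohort 1 and below 0 in cohort 2.

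The 2 cohorts gave opposite signs for several genes, which the pooled comparison does not show. In cohort 1 (8 drinkers, 8 controls) 7 of the 9 genes had a log2 fold change above 0, against 49.3% of all transcripts. Their median was 0.19 against 0.00 for all transcripts. In cohort 2 (9 drinkers, 3 controls) 7 of the 9 lay below 0, while 52.6% of all transcripts lay above 0. The median there was -0.18 against 0.02 for all transcripts. No member passed the adjusted threshold in either cohort, where 0.0363% of transcripts did in cohort 1 and 0% in cohort 2, and none was without overlap between groups (0.182% and 0.625% of transcripts). Libraries also differed in the number of transcripts above 0. In cohort 1 this number ran from 10554 to 11898 in drinkers and from 11718 to 12550 in controls. In cohort 2 it ran from 11940 to 12676 in drinkers and from 12380 to 12696 in controls. Its part in the values of the members was not tested.

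SOD1 in cohort 1 ran from 3494 to 4072 with a median of 3896 in controls, and from 3692 to 4731 with a median of 4385 in drinkers. Of the 8 drinkers 5 lay above every control, and the other 3 within their range. The log2 fold change was 0.15 (SE 0.07, adjusted p = 0.45 by edgeR's quasi-likelihood test). In cohort 2 the 3 controls stood at 4969, 4428 and 3831, and the drinkers ran from 3269 to 4619 with a median of 3885. There, 4 of 9 drinkers lay below every control and none above, a log2 fold change of -0.17 (SE 0.10). With each animal left out in turn it ran from -0.27 without control 11 to -0.08 without control 9.

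SOD2 showed the same arrangement. In cohort 1 it ran from 4826 to 9241 (median 6855) in controls and from 6710 to 11000.5 (median 7772) in drinkers, with 7 of 8 drinkers above the control median, and its log2 fold change was 0.26 (SE 0.13). In cohort 2 the controls stood at 8284, 8913 and 7364, and the drinkers ran from 5560 to 7940 (median 6634). All 9 drinkers lay below the control median and 7 below every control. The log2 fold change was -0.27 (SE 0.11), with p = 0.0303 before and 1.00 after adjustment in edgeR's quasi-likelihood test.

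PRDX2 ran from 5183 to 8427 (median 6141) in controls of cohort 1 and from 5673 to 10330 (median 7554) in its drinkers, a log2 fold change of 0.19 (SE 0.14), which was 0.11 without very heavy drinker 1 and 0.25 without control 3. In cohort 2 its controls stood at 6828, 9035 and 5274 and its drinkers ran from 4958 to 6254 (median 5803), a log2 fold change of -0.29 (SE 0.13, p = 0.0412 before and 1.00 after adjustment by edgeR's quasi-likelihood test). The drinkers of cohort 2 were close together, with an SD of 483, while its 3 controls had an SD of 1890. With each animal left out in turn, the log2 fold change ran from -0.47 without control 11 to -0.08 without control 10.

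GCLM, of glutathione synthesis, ran from 371 to 620 (median 481) in controls of cohort 1 and from 462 to 685 (median 575) in drinkers, a log2 fold change of 0.23 (SE 0.12). In cohort 2 the controls stood at 566, 594 and 531, close together, and 8 of the 9 drinkers lay below all of them, at 400 to 526.1, with the remaining one at 645. The log2 fold change there was -0.20 (SE 0.13). HMOX1 had values of 0.36 (SE 0.25) in cohort 1 and -0.18 (SE 0.34) in cohort 2, both within the spread between animals. Left out in turn, single animals moved the value of cohort 1 between 0.20 (without very heavy drinker 2) and 0.47 (without control 5).

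GPX4 and PRDX1 did not part by cohort in this way. GPX4 had a log2 fold change of -0.04 in each cohort (SE 0.08 and 0.13), and PRDX1 of 0.19 (SE 0.17) and 0.14 (SE 0.25). With 1 animal left out at a time, PRDX1 ran from 0.10 (without control 3) to 0.28 (without control 1) in cohort 1, and from 0.044 (without very heavy drinker 6) to 0.24 (without control 9) in cohort 2. NQO1 lay above 0 in both, at 1.60 (SE 0.90) and 0.75 (SE 1.03), the latter 0.49 without heavy drinker 5 and 1.18 without control 11. In cohort 1, NQO1 had a median of 16.9 normalized counts in controls and 64.6 in drinkers, and all 4 heavy drinkers of that cohort, at 43.2 to 85.5, were above the control median. In cohort 2 the controls stood at 17.7, 22.2 and 41.5, within the range of the drinkers (0 to 104).

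The difference between the cohorts was tested itself, as an interaction of cohort and drinking in 1 fit over the 28 animals. All 9 genes had a value below 0, with a median of -0.44, against a median of 0.04 and 53.7% above 0 for all transcripts. However, GPX4 (-0.0065, SE 0.14), PRDX1 (-0.047, SE 0.31) and NFE2L2 (-0.17, SE 1.39) were small against their SE. Each of these changed sign in some fits with 1 animal left out. NQO1 (-0.85, SE 1.38) was also within its SE. Of the 9, 4 had an unadjusted p under 0.05, against 9.62% of transcripts, and none passed after adjustment, against 0.0145% of transcripts. SOD2 had the largest of these at -0.54 (SE 0.19, p = 0.00812, adjusted p = 0.333 by edgeR's quasi-likelihood test). SOD1 had -0.33 (SE 0.12, p = 0.0114, adjusted p = 0.354), GCLM -0.44 (SE 0.18, p = 0.021, adjusted p = 0.4) and PRDX2 -0.49 (SE 0.20, p = 0.0243, adjusted p = 0.427), all by edgeR's quasi-likelihood test. The direction of a drinking effect on these 4 genes was not settled, and cohort 2 rests on 3 controls.

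The neuron markers had differences of the same signs, which did not pass after adjustment. Their summed level ran from 2528 to 9364 CPM in the controls of cohort 1 and from 3820 to 18322 CPM in its drinkers, a difference in mean log2 of 0.76 (exact two-sided permutation test, p = 0.0768). In cohort 2 the sum ran from 3967 to 9171 CPM in controls and from 2908 to 5188 CPM in drinkers, a difference of -0.77 (exact two-sided permutation test, p = 0.0273). Adjusted over the 12 tests of marker lists, which were added after seeing the data, these p values were 0.461 and 0.327. NEFM made up the largest part of the sum, and without it the differences were 0.64 and -0.58. Their p values, not adjusted, were 0.0336 and 0.0136 by the exact two-sided permutation test. The part of neuron markers in the values of SOD1, SOD2, PRDX2 and GCLM was not tested.

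Across the drinking categories, fitted together with cohort as a term, no member was called either. Heavy drinkers against controls gave 0 of 9 genes past the adjusted threshold (0% of transcripts), very heavy drinkers against controls 0 (0%), and very heavy against heavy drinkers 0 (0%). No member was without overlap in these comparisons, where 0.0508%, 0% and 0.0944% of transcripts were. None of the 9 had an unadjusted p under 0.05, against 7.28%, 6.49% and 6.27% of transcripts.

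NQO1 again had the largest fold changes, with log2 values of 1.74 (SE 0.87) in heavy and 1.07 (SE 0.79) in very heavy drinkers. The 5 heavy drinkers stood at 43.2, 66.7, 85.5, 71.5 and 104 normalized counts, all above the control median of 20.2, and 3 of them above every control. The 9 very heavy drinkers ran from 0 to 137 with a median of 28.9. With each animal left out in turn, the log2 fold change of very heavy drinkers ran from 0.23, without very heavy drinker 3, to 1.42. Their difference from the heavy drinkers, a log2 value of -0.67, was -1.55 without very heavy drinker 3 and -0.48 without very heavy drinker 1. It had an interval from -2.65 to 1.30, so an order between the categories was not detectable.

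SOD1 ran from 3692 to 4731 in heavy drinkers (median 4134) and from 3269 to 4684 in very heavy drinkers (median 3996), with log2 fold changes over controls of 0.07 (SE 0.09) and 0.04 (SE 0.08). The 3 very heavy drinkers of cohort 1 stood at 4648, 4635 and 4684, and the 6 of cohort 2 between 3269 and 4286. This split was not among the comparisons tested, and how many other transcripts part in this way was not counted. SOD2 had log2 fold changes of 0.16 (SE 0.14) and 0.01 (SE 0.12), and heavy drinker 1, at 11000.5, was the highest animal of all for this gene. Without that animal the heavy drinkers' log2 fold change of SOD2 was 0.048, and without heavy drinker 3 it was 0.23. PRDX1 had values of 0.20 (SE 0.19; 0.12 without heavy drinker 2, 0.33 without heavy drinker 1) and 0.24 (SE 0.17), PRDX2 of 0.02 (SE 0.15) and 0.06 (SE 0.13), GPX4 of -0.01 (SE 0.09) and -0.03 (SE 0.08).

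GCLM had log2 fold changes of 0.19 (SE 0.13) in heavy and -0.01 (SE 0.11) in very heavy drinkers. Its 5 heavy drinkers stood at 619, 685, 622, 522 and 461 normalized counts and the very heavy ones ran from 400 to 645 (median 488), so the categories overlapped. HMOX1 had 0.15 (SE 0.30) and 0.14 (SE 0.25), and NFE2L2 -0.54 (SE 0.85; -1.12 without heavy drinker 5, -0.21 without heavy drinker 2) and 0.03 (SE 0.70). NFE2L2 was listed at 0 in 2 of the 5 heavy drinkers and in none of the very heavy ones, and the heavy drinker of cohort 2 had its highest value of all, 1009.

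The low and binge drinkers, 1 and 2 animals, are given as values without a test. The single low drinker had 3810 normalized counts of SOD1, 7271 of SOD2, 5070 of GPX4, 11800 of PRDX1 and 5679 of PRDX2. In this animal GPX4 was below every control of its cohort (5427 to 6629). Its NQO1 was 62.6, its GCLM 479, its HMOX1 271, and NFE2L2 was listed at 0. The 2 binge drinkers had 3505 and 3726 of SOD1, 6742 and 7843 of PRDX1 and 4958 and 6038 of PRDX2, each below the median of its 12-animal cohort except the PRDX2 of the second (cohort median 5920). Their NQO1 (10.5 and 24.2) and NFE2L2 (384 and 575) were also below the cohort medians of 26.6 and 625.3. GCLM, at 513 and 526.1, was above its cohort median of 503 in both. In the second animal SOD2 (7190), GPX4 (5917) and HMOX1 (355) were above the cohort medians of 7098, 5671 and 258, and in the first, at 6626, 4670 and 253, they were below.

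Between the cohorts, with drinking as a term, PRDX1 had the lowest p among the members. It ran from 7377 to 17273 (median 11815) in cohort 1 and from 6503 to 15186 (median 8674) in cohort 2, and 10 of the 12 animals of cohort 2 lay below the median of cohort 1. The log2 difference of cohort 2 from cohort 1 was -0.44 (SE 0.14, p = 0.00453, adjusted p = 0.213 by edgeR's quasi-likelihood test). PRDX2 had -0.22 (SE 0.10, p = 0.0445, adjusted p = 0.49 by the same test of edgeR), with 11 of 12 animals below the median of cohort 1. These 2 of the 9 had an unadjusted p under 0.05, against 9.8% of transcripts, and none passed after adjustment, against 0.0436%. No member was without overlap (0% of transcripts).

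The other members had an unadjusted p above 0.05. HMOX1 had a log2 difference of -0.35 (SE 0.20), GPX4 of -0.12 (SE 0.07), SOD2 of -0.11 (SE 0.10), GCLM of -0.07 (SE 0.09), NQO1 of -0.14 (SE 0.65) and SOD1 of -0.01 (SE 0.06). NFE2L2 was the only one above 0, at 0.86 (SE 0.64). It was listed at 0 in 4 of 16 animals of cohort 1 and none of cohort 2, and 5 of 12 animals of cohort 2 lay above the highest of cohort 1 (722). Oligodendrocyte markers had a median sum of 17164 CPM in cohort 1 and 14611 CPM in cohort 2, and their part in the difference of PRDX1 was not tested. Cohort and any difference in when tissue was taken or sequenced cannot be told apart.

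The wider antioxidant pathway, 62 genes in 6 lists that include the members, held no called gene in any comparison (0 of the 59 that passed the filter). In cohort 1, 5 genes were above and 1 below 0 in drinkers at an unadjusted p under 0.05, against 11.6% of transcripts. Above 0 were 40 of 59, against 49.3% of transcripts, with a median of 0.12 against 0.00. In cohort 2 none was above and 5 were below 0 at that p, against 3.97% of transcripts. Below 0 were 40 of 59, while 52.6% of transcripts lay above 0, with a median of -0.06 against 0.02. The interaction had 10 of 59 genes below 0 at an unadjusted p under 0.05 and none above, against 9.62% of transcripts in either direction. Below 0 were 41 of 59, while 53.7% of transcripts lay above 0, with a median of -0.20 against 0.04. Of the 10 genes at that p, 4 are the members already given. Of the 50 that are no members, 6 were below 0 at that p, with a median of -0.17.

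By role, the interaction in the thioredoxin and glutaredoxin system, which supplies electrons to the peroxiredoxins, had 9 of 11 genes below 0 and a median of -0.57. Superoxide dismutation had 3 of 4 genes below 0 (median -0.27), peroxide removal 10 of 12 (median -0.15), glutathione synthesis, recycling and transfer 10 of 15 (median -0.12) and heme and quinone handling 6 of 9 (median -0.41). The list on NRF2 control, which holds NFE2L2, its inhibitor KEAP1 and its partners, had 3 of 8 below 0 (median 0.11). None of these genes passed the adjusted threshold, and the lowest adjusted p of the 59 was 0.164 by edgeR's quasi-likelihood test.

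Between cohorts, 43 of the 59 genes had a value below 0 in cohort 2 against cohort 1, while 52.8% of all transcripts lay above 0. Of the 59, 11 were below 0 at an unadjusted p under 0.05 and none above, against 9.8% of transcripts in either direction, and none passed after adjustment (lowest adjusted p = 0.213 by edgeR's quasi-likelihood test). Heme and quinone handling, the list of HMOX1 and NQO1, had all 9 genes below 0, 4 of them at an unadjusted p under 0.05, with a median of -0.24 against 0.02 for all transcripts. The list of glutathione synthesis, recycling and transfer, which holds GCLM, had 12 of 15 below 0 and 5 at an unadjusted p under 0.05. NRF2 control had 5 of 8 above 0. In drinkers against controls over both cohorts, 27 of 59 genes lay above 0, against 50.3% of transcripts, with a median of -0.01 against 0.00.

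The members varied together only loosely over animals. Of the 36 pairs among the 9 genes, 25 had a correlation of log2 CPM above 0, 9 had an unadjusted p under 0.05 and none passed by Pearson's r after adjustment for 36 pairs, while 1 passed by Spearman's rho. SOD2 and PRDX2 had the highest, with Pearson's r = 0.56 (permutation p = 0.00206, adjusted 0.0596) and Spearman's rho = 0.61 (permutation p = 0.00074, adjusted 0.0266). SOD1 and PRDX2 had r = 0.54 (permutation p = 0.00331, adjusted 0.0596) and rho = 0.52. Without the 2 animals farthest from the median, r was 0.56 and 0.57. Within cohort 1 the pair of SOD2 and PRDX2 had r = 0.48 and within cohort 2 r = 0.71, and the pair of SOD1 and PRDX2 r = 0.58 in each.

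Several members varied with the markers of a cell type. Of the 54 correlations of 9 genes with 6 marker sums over animals, 8 passed by Pearson's r after adjustment. SOD2, PRDX2 and SOD1 rose with the neuron sum, PRDX1 with the oligodendrocyte sum and HMOX1, of the lower range, with the microglia sum, while SOD2 fell with the oligodendrocyte sum and PRDX2 and GPX4 with the astrocyte sum. Both values of a point come from the same library. By Pearson's r none of the 9 genes passed with the dopamine neuron sum, for which r ran from -0.20 to 0.45, nor with the endothelial sum. By Spearman's rho the same 8 passed, and HMOX1 with the dopamine neuron sum as well (rho = 0.50, permutation p = 0.00711, adjusted 0.0427, against r = 0.45, permutation p = 0.0147, adjusted 0.0883).

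SOD2 and the neuron sum had r = 0.68 (permutation p = 4e-05, adjusted 0.00216) and rho = 0.76 (permutation p = 2e-05, adjusted 0.00054), r = 0.62 within cohort 1 and 0.86 within cohort 2, and r = 0.77 without the 2 farthest animals. PRDX2 had r = 0.67 (permutation p = 9e-05, adjusted 0.00234) and rho = 0.72 (permutation p = 2e-05, adjusted 0.00054), 0.60 and 0.76 within the cohorts and 0.62 without the 2 farthest animals. SOD1 had r = 0.58 (permutation p = 0.00113, adjusted 0.0102) and rho = 0.61 (permutation p = 0.0007, adjusted 0.00945), 0.63 and 0.62 within the cohorts and 0.47 without the 2 farthest animals, which no longer passed (adjusted permutation p = 0.0953). With the mean log2 CPM of the markers in place of their sum, a setting chosen after seeing the data, r was 0.79 for SOD2, 0.45 for PRDX2 and 0.31 for SOD1, and SOD2 alone of the 3 still passed.

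PRDX1 and the oligodendrocyte sum had r = 0.66 (permutation p = 2e-04, adjusted 0.0027) and rho = 0.70 (permutation p = 5e-05, adjusted 0.0009), with 0.53 within cohort 1 and 0.85 within cohort 2, and 0.65 without the 2 farthest animals. With the mean log2 CPM of the markers r was 0.32 and did not pass. HMOX1 and the microglia sum had r = 0.71 (permutation p = 0.00013, adjusted 0.00234) and rho = 0.56 (permutation p = 0.0027, adjusted 0.0208), with 0.49 within cohort 1 and 0.94 within cohort 2. Very heavy drinker 8 had the lowest HMOX1 of all animals (84.5 normalized counts) and the lowest microglia sum (173 CPM), and without this and the other farthest animal r was 0.47 (adjusted permutation p = 0.0953), so that the call rests on them.

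The 3 negative correlations did not pass without the 2 animals farthest from the median. SOD2 and the oligodendrocyte sum had r = -0.63 (permutation p = 0.00031, adjusted 0.00335) and rho = -0.57 (permutation p = 0.00178, adjusted 0.016), PRDX2 and the astrocyte sum r = -0.54 (permutation p = 0.00289, adjusted 0.0223) and rho = -0.58 (permutation p = 0.00158, adjusted 0.016) and GPX4 and the astrocyte sum r = -0.51 (permutation p = 0.00538, adjusted 0.0363) and rho = -0.50 (permutation p = 0.00706, adjusted 0.0427). Without those animals they were -0.47, -0.48 and -0.36. Given cohort and drinking, the partial correlation of SOD2 was -0.71 and passed, while those of PRDX2 (-0.48, adjusted permutation p = 0.0537) and GPX4 (-0.40, adjusted permutation p = 0.151) did not. Within cohorts 1 and 2, SOD2 had stronger values of -0.70 and -0.76, while PRDX2 had -0.38 and -0.57 and GPX4 -0.37 and -0.44. A sum of markers of 1 cell type takes up part of the counts of a library, so sums of different types are not independent.

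**Figure D3:**
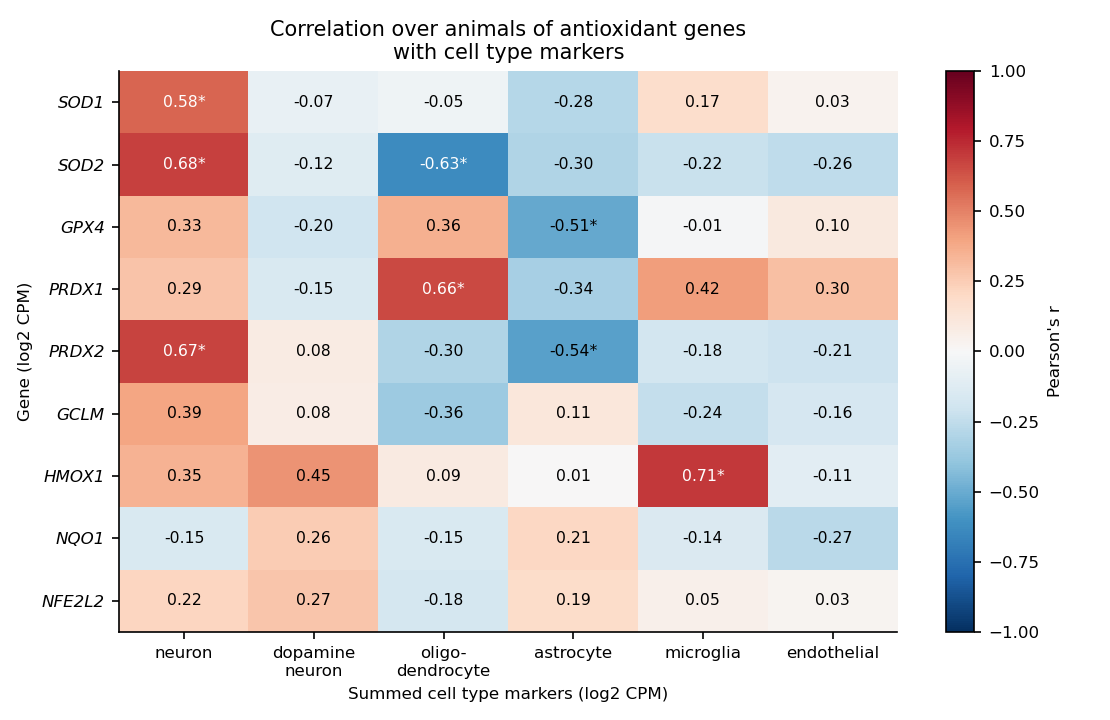
Pearson's r over animals between log2 CPM of each antioxidant gene (rows) and the log2 summed CPM of 6 lists of cell type markers (columns), from blue (-1) to red (1), with a star where the permutation p adjusted over 54 correlations is under 0.05. NFE2L2 is taken over the 24 animals in which it is above 0, all others over 28, and 8 cells carry a star.

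**Figure D4:**
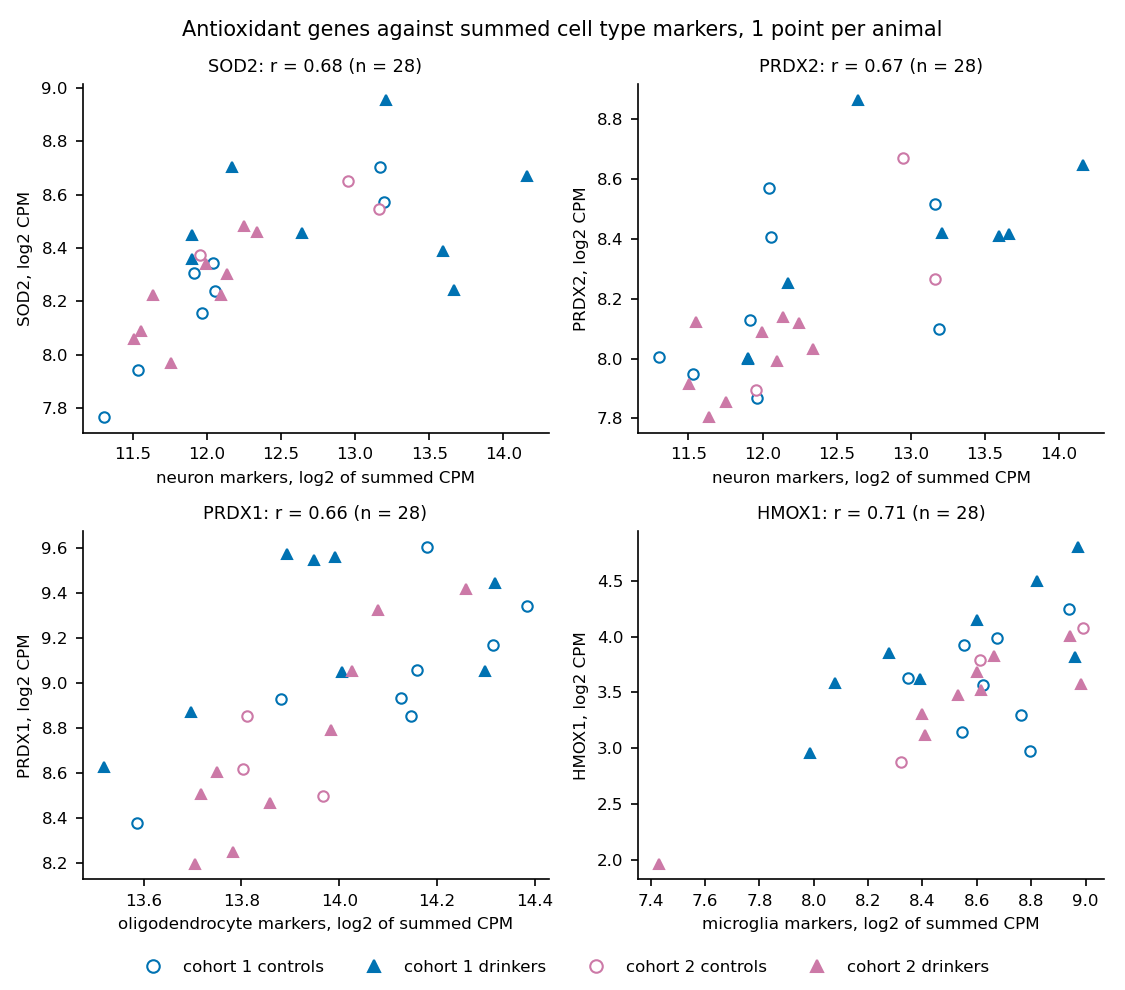
Log2 CPM of SOD2, PRDX2, PRDX1 and HMOX1 (y axes) against the log2 summed CPM of a marker list (x axes), 1 point per animal, by cohort and treatment. All 4 rise along the x axis (r = 0.68, 0.67, 0.66 and 0.71), and the lowest point of HMOX1 is very heavy drinker 8.

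The transcripts most like each member over the animals are given without a test, from at least 7743 others with a mean of at least 100 counts. SOD2 was closest to SH3BGRL2 and PITPNA (r = 0.92 for both) and PRDX2 to GAPDH and ATP6V1E1 (0.89 for both), a glycolytic enzyme and a subunit of the proton pump of vesicles. PRDX1 was closest to FTL (0.82), the light chain of the iron store ferritin, and to RAB3D (0.80). SOD1 was closest to PPIA (0.80) and ENSA (0.74), and HMOX1 to RNASE6 (0.81) and HIPK1 (0.73). GPX4 had CD320 (0.72) and CHCHD10 (0.70), and GCLM RMND1 (0.71) and LYPLA1 (0.69). The values of the remaining genes were lower: NQO1 reached 0.62 with ATRX and ANKRD6, and NFE2L2, over 24 animals, 0.62 with ELF1 and 0.61 with NDUFA5.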

How the data were processed

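RNA from VTA punches of 28 macaques was sequenced with 1 library per animal (messenger RNA kit). The authors trimmed the reads with Trim Galore 0.6.7, quantified them with Salmon 1.9.0 against Mmul_10 and deposited estimated counts without normalization, 1 column per animal and 1 Ensembl transcript per gene symbol; their notes also name DESeq2 1.36.0. Transcripts that Salmon assigned elsewhere are not in a gene's value, and the limit given for a count of 0 covers counting error only. The 1 entry without a symbol (1.16e-05% of counts) was left out, and counts were rounded. Drinking categories came from the labels, and cohorts from the study's source data. Each library is a separate animal, so replicate numbers only name animals.

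Groups were compared with edgeR 4.0.16 (TMM, quasi-likelihood test, Benjamini-Hochberg over the 13769 transcripts that reached 5 counts in 3 or more animals, threshold 0.05), in each cohort alone, over categories with cohort as a term, and as a cohort by drinking interaction. A standard error is the log2 fold change divided by the square root of F, and 95% intervals use the t distribution of the fit. Correlations used log2 CPM (prior count 2) and 100000 permutations, two-sided, for which the smallest p is 1e-05. Marker sums were compared by exact permutation. NFE2L2 was correlated over the 24 animals above 0, a choice made after seeing the data. Blood markers were not used, since 1 of 6 passed the filter. Coordinates, lengths and upstream sequence came from RefSeq (Mmul_10). Alternatives were DESeq2 1.42.0 (its size factors and its Wald test), no filter, cohort as a term or not, and each animal left out in turn. R 4.3.3, Python 3.11.15, numpy 2.4.6, pandas 2.3.3 and scipy 1.17.1 were used.

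All members are named, other pathway genes only where they pass the adjusted threshold, and the 2 transcripts most correlated with each member. The members, marker lists and pathway lists were chosen with earlier results of these data known. Further matches of the response element are not reported here.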

Additional observations from a re-analysis of the deposited data

Results flagged for a closer look

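In 45 sets of 5 to 9 animals and 1 gene each, the highest and lowest animals were compared with their neighbours by Dixon's criterion, which chance meets in about 1 in 20 sets, and 2 sets held an animal that stood apart. SOD2 in heavy drinker 1 was 11000.5 normalized counts, the highest of the 5 heavy drinkers, with the next at 7940 and a gap of 0.713 of the range. NQO1 in control 3 was 71.4 normalized counts, the highest of the 8 controls of cohort 1, with the next at 29.2 and a gap of 0.591 of the range. NFE2L2 was listed at 0 in control 3, whose PRDX1 (7377) was also the lowest among the controls and whose PRDX2 (8427) was the highest of cohort 1 controls.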

How the results depend on the processing

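No member passed the adjusted threshold in any of the 8 comparisons under another normalization, without a filter, with or without cohort as a term, with any 1 animal left out, or by DESeq2's Wald test, which gave no adjusted p for 2 members in cohort 1 and 4 in the interaction. Of the 13769 transcripts tested, edgeR called 0, 5, 0, 0, 0, 0, 6 and 2 and DESeq2 11, 234, 23, 47, 87, 77, 121 and 129, in the order drinkers against controls, cohort 1, cohort 2, very heavy against controls, heavy against controls, very heavy against heavy, cohort 2 against cohort 1, and interaction. DESeq2 gave no adjusted p for 8864 transcripts in cohort 1, 10145 in the interaction and 21 to 272 in the other comparisons. The 2 sets of calls thus rest on unlike sets of transcripts. The cause of their difference was not tested. No paired analysis was possible because the labels do not tie a control to a drinker.

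The log2 values of members that changed sign were these. With cohort as a term PRDX2 in all drinkers was 0.0071, and without it SOD2 and PRDX2 in very heavy drinkers were -0.0052 and -0.0011, and PRDX1 and PRDX2 in very heavy against heavy -0.17 and -0.043. With DESeq2's size factors GCLM in very heavy drinkers was 0.00037 and GPX4 in heavy drinkers 0.0019, also 0.0019 by DESeq2. Leaving out 1 animal changed the sign in 88 of 1458 values. In very heavy drinkers against controls SOD2 then ran from -0.050 to 0.075, GPX4 from -0.075 to 0.033, PRDX2 from -0.044 to 0.18, HMOX1 from -0.11 to 0.30, NFE2L2 from -0.14 to 0.13 and GCLM from -0.080 to 0.037; in heavy drinkers GPX4 from -0.069 to 0.025, PRDX2 from -0.019 to 0.096 and HMOX1 from -0.022 to 0.24; in very heavy against heavy SOD1 from -0.071 to 0.025, GPX4 from -0.069 to 0.039, PRDX1 from -0.10 to 0.12, PRDX2 from -0.078 to 0.072 and HMOX1 from -0.29 to 0.16. In cohort 2 GPX4 ran from -0.19 to 0.11 and HMOX1 from -0.47 to 0.080; over both cohorts SOD2 from -0.0063 to 0.082, PRDX2 from -0.082 to 0.018, HMOX1 from -0.0035 to 0.17 and NFE2L2 from -0.24 to 0.019; between cohorts SOD1 from -0.063 to 0.0078 and NQO1 from -0.33 to 0.079; in the interaction GPX4 from -0.14 to 0.15, PRDX1 from -0.15 to 0.058 and NFE2L2 from -0.36 to 0.086. With each animal left out, the interactions of SOD1 (-0.42 to -0.23), SOD2 (-0.61 to -0.47), PRDX2 (-0.65 without control 11 to -0.27 without control 10) and GCLM (-0.50 to -0.39) stayed below 0.

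Of the correlations, 2 pairs of members passed with variance stabilized counts against 0 with log2 CPM, both by Pearson's r. Of the correlations with markers, 8 passed by Pearson's r, 0 within cohort 1 (16 animals) and 5 within cohort 2. Given cohort and drinking, with variance stabilized counts and without the most abundant marker, 7 each passed. Without the 2 farthest animals and with the mean log2 CPM of the markers, 3 each passed. The mean log2 CPM of the markers and the sums without the most abundant marker were chosen after seeing the data. The cause of these differences was not tested. GPX4 with astrocytes was lost in the 3 settings that gave 7 (adjusted permutation p = 0.151, 0.101 and 0.115), and given cohort and drinking PRDX2 with astrocytes was lost (0.0537) and PRDX1 with microglia gained (r = 0.50, adjusted permutation p = 0.044).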
